A study of Mus musculus with 9 samples.

Results

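The abundance profile of microRNAs (miRNAs) in the wild type mouse lung at E18.5, shortly before birth, was described from 4 lungs of 9 in the series. The lungs were chosen by 2 criteria, a wild type label and a count under 500 for miR-208a, a miRNA of heart muscle that lies within a cardiac myosin heavy chain gene. The 4 lungs, wild type 1, 2, 4 and 5, had 15, 29, 17 and 54 miR-208a counts, so the nearest lung inside the limit lay at 54. Wild type 3, the labelled wild type lung left outside it, had 1202. These values selected the lungs and support nothing further. The 4 remaining samples of the series were Bim3'UTRmut/mut lungs, and no comparison of genotypes was made.

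All lungs of the series were C57BL/6 embryonic lungs, taken whole and untreated, so every level is an average over the cell types of the organ, and fewer cells of a type and less miRNA per cell cannot be told apart. Total RNA, 100 ng per sample, was read on a NanoString nCounter mouse miRNA panel, in which a tagged miRNA is captured by a colour-coded probe and counted without amplification. Each of 566 mouse miRNA probes gave a whole-number count, and a share is that count as a percentage of all mouse miRNA counts of the lane. The labels do not say whether the lungs came from separate litters, so the spread between them may be partly technical. The free-text lane comment for wild type 5 names it as a mutant lung, against its sample label, which was followed here. Results without it are given where they move.

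The mouse miRNA counts summed to 277603, 280287, 220630 and 289227 in wild type 1, 2, 4 and 5. Background was read from 8 negative control probes per lane, whose mean was 28.1, 64.3, 31.5 and 79.1 counts. A probe was called above background where it exceeded the mean plus 2 SD of those controls, which set the threshold at 56.3, 146.6, 56.5 and 197.5 counts. Wild type 2 and 5 were thus read against a higher background than wild type 1 and 4. Probes differ in how well they ligate and capture their target, so the order of counts described here is not an order of molecules.

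A miRNA is cut from a hairpin precursor, and the mature strand, from the 5p or the 3p side, guides an Argonaute protein to messenger RNAs that pair with its seed, bases 2 to 8. miRNAs with the same seed form a family and can bind the same sites. In the lung, miRNAs are known for parts in branching, vessel growth and epithelial differentiation before birth, and several are made mainly in 1 cell lineage, such as miR-126 in endothelium and the miR-200 family in epithelium.

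The mature sequences below carry the profile, since they belong to the families with the most counts. They are RefSeq mature miRNAs of the GRCm38.p6 annotation, written 5′ to 3′ with the seed in capitals. The let-7 miRNAs, which were found as regulators of developmental timing in worms and are held low by Lin28 in early embryos, share the seed GAGGUAG.
let-7d: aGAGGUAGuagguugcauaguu
let-7i: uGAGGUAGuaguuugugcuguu
let-7g: uGAGGUAGuaguuuguacaguu
let-7a: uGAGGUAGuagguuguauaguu
let-7b: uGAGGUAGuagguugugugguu
let-7c: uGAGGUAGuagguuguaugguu

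The miR-15/16 family, which targets cell cycle genes and Bcl2, shares the seed AGCAGCA but differs widely after it.
miR-16: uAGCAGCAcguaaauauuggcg
miR-322: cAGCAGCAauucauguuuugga
miR-15b: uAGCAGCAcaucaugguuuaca
miR-15a: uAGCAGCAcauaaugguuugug

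The most abundant probe read miR-126-3p, which comes from an intron of Egfl7, supports vascular integrity, and has a seed that no other matched probe of the panel shares. The miR-125 miRNAs are the mammalian relatives of worm lin-4. The strands of the miR-199a hairpin, a mesenchymal miRNA, have different seeds and therefore count as separate families.
miR-126-3p: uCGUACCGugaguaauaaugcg
miR-125a-5p: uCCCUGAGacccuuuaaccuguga
miR-125b-5p: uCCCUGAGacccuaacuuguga
miR-199a-3p: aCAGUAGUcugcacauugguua
miR-199a-5p: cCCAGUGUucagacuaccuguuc

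The epithelial miR-200c, miR-200b and miR-429, which repress Zeb1 and Zeb2, share the seed AAUACUG. The probe for miR-20a and miR-20b reads members of the miR-17~92 cluster and its paralog, with the seed AAAGUGC.
miR-200c: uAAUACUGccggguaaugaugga
miR-200b: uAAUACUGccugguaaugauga
miR-429: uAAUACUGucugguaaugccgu
miR-20a: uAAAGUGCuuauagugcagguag
miR-20b: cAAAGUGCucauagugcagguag

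miR-126-3p gave 31766, 34642, 25451 and 32348 counts in wild type 1, 2, 4 and 5. That was 11.4%, 12.4%, 11.5% and 11.2% of all mouse miRNA counts, a mean of 11.6% ± 0.508 (SD, n = 4). It was the most abundant probe in each of the 4 lungs. miR-16 had 18030, 14268, 13749 and 16913 counts, a share of 5.92% ± 0.611. let-7d had 16280, 16849, 13563 and 15678 counts, a share of 5.86% ± 0.315. These neighbours in the order did not separate, since miR-16 ranked above let-7d in wild type 1, 4 and 5 and below it in wild type 2.

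Behind them came miR-125a-5p, with 11324, 11237, 10413 and 10729 counts and a share of 4.13% ± 0.425. Within the next group, let-7i averaged 3.74% ± 0.214, miR-199a-3p 3.73% ± 0.323, miR-322 3.59% ± 0.316 and let-7g 3.33% ± 0.197. The spreads of these 4 probes overlap, and their order changed from lung to lung. miR-322, the mouse counterpart of human miR-424, had rank 4 in wild type 5 and rank 8 in wild type 4. Its counts were 9786, 10574, 7007 and 11256, with the lowest share in wild type 4.

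A further group of probes lay between 1.95% and 2.43% of counts. It held let-7a at 2.43% ± 0.113, let-7b at 2.34% ± 0.0578 and let-7c at 2.03% ± 0.0741. It also held miR-15b at 2.17% ± 0.271 and miR-181a, known for tuning T cell receptor signalling, at 2.12% ± 0.188. miR-145, a smooth muscle miRNA, averaged 2.11% ± 0.306, with 6956, 4949, 4504 and 6162 counts. miR-25, of the miR-106b~25 cluster, averaged 1.95% ± 0.218. The remaining probes of the top 20 were miR-20a + miR-20b, miR-720, miR-125b-5p, miR-15a and miR-199a-5p, with mean shares from 1.33% to 1.56%. miR-200c, an epithelial marker of the profile, had rank 24 at 1.20% ± 0.104, with 3356, 3293, 2950 and 3140 counts. All 4 markers named for this tissue profile, miR-126-3p, miR-16, let-7d and miR-200c, were above background in all 4 lungs. The markers were chosen with results of these data known, so their detection is no separate support.

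**Figure D1:**
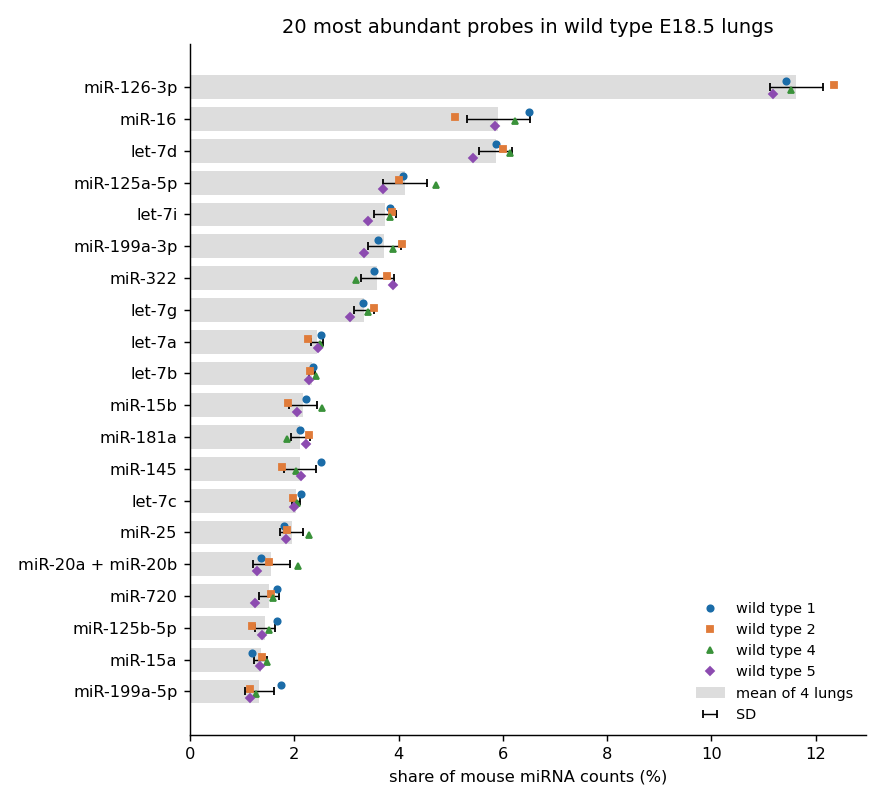
Share of mouse miRNA counts (horizontal axis, percent) of the 20 probes with the highest mean share, in wild type 1, 2, 4 and 5 (points), with the mean (grey bar) and SD (error bar). miR-126-3p lies between 11.2% and 12.4% in the 4 lungs, apart from every other probe.

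Counts were concentrated in few probes. The most abundant 20 probes held 65.4%, 63.8%, 66.5% and 61.3% of counts in wild type 1, 2, 4 and 5, a mean of 64.3% ± 2.28 (SD, n = 4). The first 10 held 46.7% ± 1.42 and the first 50 held 82.8% ± 2.87. To reach 50% of counts took 12, 12, 11 and 13 probes. The lungs parted further down the order, since 90% of counts took 77, 128, 84 and 159 probes, more in wild type 2 and 5, the lanes with the higher background. Absent probes, defined below as at or under the threshold in all 4 lungs, took 3.07%, 6.28%, 3.89% and 7.79% of counts. Any pair of lungs shared 17 to 19 of its 20 most abundant probes.

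**Figure D2:**
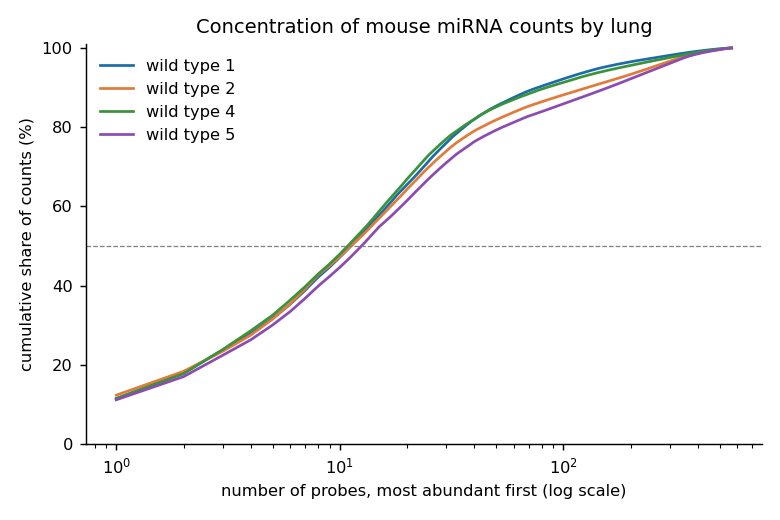
Cumulative share of mouse miRNA counts (vertical axis, percent) against the number of probes taken from the most abundant down (horizontal axis, log scale), 1 line per lung, with a dashed line at 50%. The lines cross 50% at 11 to 13 probes and separate beyond it, with wild type 2 and 5 lowest.

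Families were formed from the 377 of 566 probes that could be matched to a RefSeq mature sequence. The matched probes held 88.6% to 90.3% of counts per lung and included 107 of the 122 probes above background in all 4 lungs. Of the matched probes, 28.4% were above in all 4 lungs and 53.8% were absent. They carried 307 different seeds, of which 36 were read by 2 or more probes. The 12 families with the most counts together held 70.1% ± 2.32, and the largest 2 held 34.9% ± 1.08 (SD, n = 4). This ranking covers matched probes only. Of the top 20 probes, 2 had no match and enter no family, miR-145 at 2.11% and miR-720 at 1.51%. Each held more counts than the last of the 12 families.

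The let-7 family was the largest, with 22.3%, 21.9%, 22.5% and 20.7% of counts in wild type 1, 2, 4 and 5, a mean of 21.8% ± 0.819. Of its 10 probes 9 were above background in all 4 lungs, and the exception, miR-1961, was above in 2. The count was spread over its members, since let-7d, the largest, made up 26.8% ± 0.644 of the family. Several members are nearly identical: let-7a differs from let-7c at 1 of 22 bases and from let-7d at 2. How far these probes detect each other's targets was not tested, so the split within the family is uncertain.

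The miR-15/16 family came next, with 13.5%, 12.2%, 13.4% and 13.2% of counts, a mean of 13.1% ± 0.613. miR-16 made up 45.2% ± 2.74 of it, followed by miR-322. Of its 6 probes 4 were above background in all lungs. miR-497 was above in 1 lung, and miR-195, which shares a precursor transcript with miR-497, was at 55, 45, 32 and 64 counts and absent. The seed of this family therefore came mainly from miR-16, miR-322, miR-15b and miR-15a. Adding wild type 3 to the 4 lungs brings the mean of the family to 11.98%.

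miR-126-3p, as a family of 1 probe, had rank 3. The miR-125 family held 5.83%, 5.32%, 6.34% and 5.21% of counts, a mean of 5.67% ± 0.521. Its main member was miR-125a-5p, with 72.8% ± 2.55 of the family, and its second was miR-125b-5p. The third, miR-351, which comes from the same X-linked region as miR-322, had 235, 325, 251 and 312 counts.

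Both arms of miR-199a were among the 12 families, miR-199a-3p with 3.73% and miR-199a-5p with 1.33% ± 0.285. The RefSeq sequence of miR-199a-3p is identical to that of miR-199b-3p, so its probe reads both. The miR-17 family, with the probes for miR-20a + miR-20b, miR-106a + miR-17, miR-93 and miR-106b, held 2.73%, 2.77%, 3.98% and 2.74%, a mean of 3.05% ± 0.618. Its share was high in wild type 4 and nearly equal in the other 3 lungs. Nearly all of it came from the 2 probes that each read a pair of miRNAs, and without them miR-93 and miR-106b held 0.203%. These miRNAs promote proliferation in many tissues, the fetal lung included, and repress Bim. The miR-200 family held 2.86%, 2.49%, 2.78% and 2.44%, a mean of 2.64% ± 0.207, divided between miR-200c at 1.20%, miR-200b at 0.731% and miR-429 at 0.709%. That sum leaves out miR-200a and miR-141, which share a different seed and together held 0.226% ± 0.0472.

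Each of the last 5 families rested mainly on its leading probe. miR-181a made up 95.5% of the miR-181 family (2.22% ± 0.219 of counts), with miR-181c next. miR-25 made up 94.7% of the family of miR-25, miR-32, miR-92 and miR-363 (2.06% ± 0.210) and was its 1 probe above in all lungs. miR-367, next by mean share, was above in wild type 5 alone, by 1.04-fold. In that family 3 of 6 probes were absent, near the 53.8% of all matched probes. One of the 3, chosen after its values were seen, was miR-92a, which is cut from the same transcript as miR-17 and miR-20a. It had 34, 21, 26 and 46 counts. miR-30c made up 85.2% of its family (1.55% ± 0.164), followed by miR-30a, and miR-27a made up 95.7% of the miR-27 family (1.28% ± 0.127), followed by miR-27b.

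**Figure D3:**
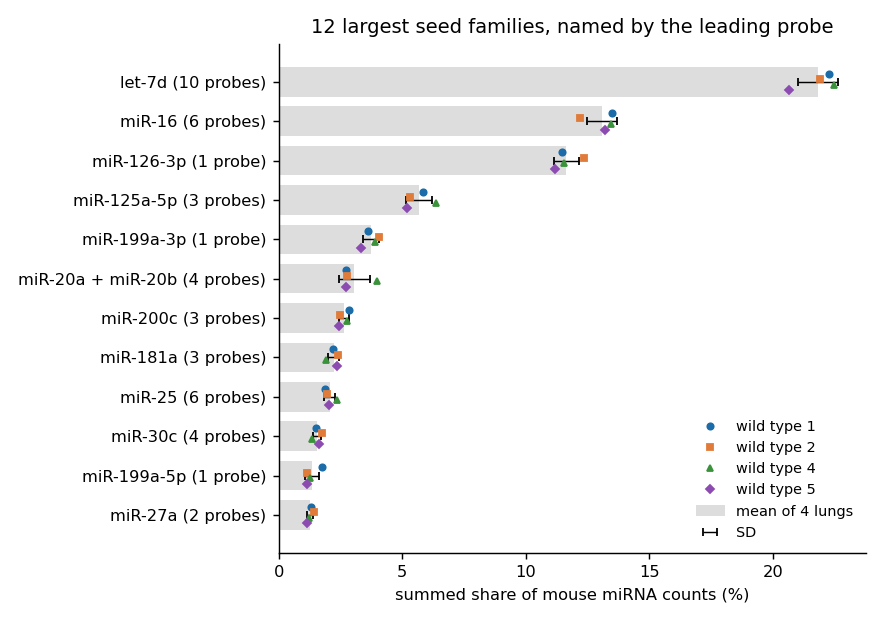
Summed share of mouse miRNA counts (horizontal axis, percent) of the 12 seed families with the most counts, named by the leading probe, in wild type 1, 2, 4 and 5 (points), with the mean (grey bar) and SD (error bar). The let-7 family is the largest in all 4 lungs, and wild type 4 stands above the other lungs in the family led by miR-20a + miR-20b. Only probes matched to a mature sequence enter, so miR-145 and miR-720 are not shown.

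A probe for each arm was available for 65 hairpins. Both arms were absent in 36 of them, and 14 had at least 1 arm above background in all 4 lungs. By single probe, 60.4% of all 566 mouse probes were absent and 21.6% above in all 4 lungs. In 3 hairpins, miR-126, miR-199a and miR-125a, both arms were above in all 4. Because the arms are read by different probes, a share within a hairpin compares counts and not molecules. With 4 lungs the smallest two-sided p of an exact sign-flip test is 0.125, so no test of an arm was made.

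The hairpins with both arms detected differed in how evenly their arms were counted. The 3p arm of miR-126 took 96.5%, 97.6%, 97.2% and 97.4% of the counts of both arms in wild type 1, 2, 4 and 5, against 1140, 851, 723 and 873 counts for miR-126-5p. miR-125a went the other way, with 192, 250, 164 and 243 counts on the 3p arm, which was 1.67%, 2.18%, 1.55% and 2.21% of the hairpin. miR-199a was the hairpin with both strands abundant. Its 3p arm took 67.3%, 78.0%, 75.4% and 74.4% of counts, lowest in wild type 1. The repeat lanes gave 72.1% for wild type 1 and 69.6% for wild type 5, so with those lanes wild type 5 was lowest. The 3p probe also reads the identical miR-199b-3p, so this share is not that of 1 hairpin alone.

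In 7 of the 14 hairpins the 5p arm had more counts in every lung, and in 6 the 3p arm did. miR-125b, miR-335 and miR-151 favoured 5p, with mean 3p shares of 1.74% ± 0.611, 5.69% ± 0.492 and 8.89% ± 1.13. The 3p arm of miR-151 was above background in 2 lungs, that of miR-335 in 3 and that of miR-125b in 1, so these 3p counts lie near background. miR-342, miR-369 and miR-434 favoured 3p, with mean 3p shares of 95.2% ± 1.17, 86.0% ± 5.50 and 74.1% ± 3.42 (SD, n = 4). Their 5p arms were above background in 0, 1 and 2 lungs. With the mean of the negative controls subtracted, the 3p shares of miR-342, miR-369 and miR-434 were 99.9%, 93.1% and 79.6%. Those of miR-125b, miR-335 and miR-151 were then 0.413%, 3.94% and 5.33%.

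For 5 hairpins the weaker arm was absent and the share is only a bound. The 3p arm of miR-342 exceeded its 5p arm by at least 3.70-fold to 13.8-fold over the lungs when the 5p arm was set at the lane threshold. On the same measure the 5p arm of miR-450a exceeded its 3p arm by at least 2.62-fold to 8.09-fold, that of miR-532 by at least 1.49-fold to 4.98-fold, and that of miR-542 by at least 1.27-fold to 3.45-fold. The 3p arm of miR-331 exceeded its 5p arm by at least 1.08-fold to 2.06-fold.

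miR-142, made in blood cells, had no constant leading arm. miR-142-3p had 161, 193, 98 and 251 counts and miR-142-5p 160, 184, 146 and 190. The 3p share was 50.2%, 51.2%, 40.2% and 56.9%, above 50% in wild type 1, 2 and 5 and below it in wild type 4. These counts lie near background, and miR-142-5p was under the threshold in wild type 5. With the mean plus 2 SD of the controls subtracted, the 3p share was 59.3% ± 29.0.

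**Figure D4:**
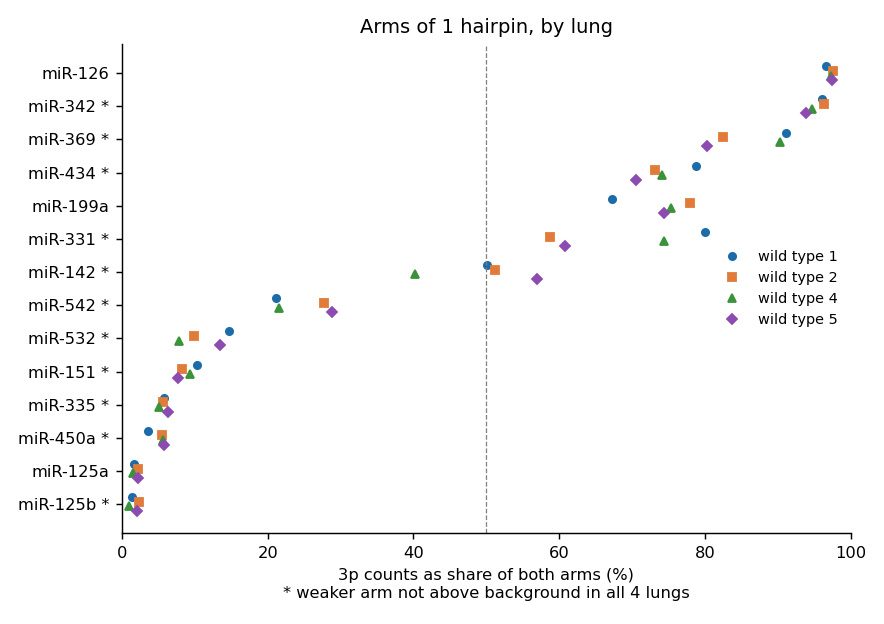
Counts of the 3p arm as a percentage of both arms (horizontal axis) for the 14 hairpins with at least 1 arm above background in all 4 lungs, 1 point per lung, with a dashed line at 50%. Most hairpins lie well to 1 side in every lung, and miR-142 straddles the line, from 40.2% to 56.9%. The 3p probe of miR-199a also reads miR-199b-3p.

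Of the 566 mouse probes, 122 (21.6%) were above background in all 4 lungs, 102 in some and 342 (60.4%) in none. The last group is called absent, which means not detectable over the controls of the lane and not that the miRNA is missing. The number depends on the threshold: with the plain mean of the negative controls as the threshold, 180 probes were absent and 288 were present in all 4, while at the mean plus 3 SD 377 were absent and 97 present. With the highest negative control as the threshold, 309 were absent and 135 present. It also depends on the lane, since 208, 137, 198 and 129 probes exceeded the threshold in wild type 1, 2, 4 and 5. Of the 102 intermediate probes, 47 were above in both lower-background lanes, wild type 1 and 4, and in neither other lung, while 1 showed the reverse.

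Wild type 1 and 5 had each been read in a second lane, and 335 of the 342 absent probes stayed at or under the threshold there too. At the edge, miR-324-5p reached 56 counts in wild type 1, just under the threshold of that lane, and was counted absent. miR-92b reached 57 counts in wild type 4, just over it. The probes for miR-155, an immune cell miRNA, and miR-34c, a miRNA of multiciliated cells, were listed at 1 count in all 12 lanes of the series, below every negative control mean.

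Sequence features were read for the same classes of probes. The mature strand began with U in 60 of 104 matched single-miRNA probes above background in all lungs (57.7%), 29 of 67 above in some (43.3%) and 82 of 203 absent (40.4%). The median GC content was 43.7%, 47.6% and 50% in these groups, and the median length was 22 bases in each. These are descriptions over probes that share families and hairpins, and were not tested.

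Lists of miRNAs known from particular cell types were read against the same background. Their counts of detected probes stand beside 21.6% above in all lungs and 60.4% absent over all 566 mouse probes. The endothelial list held 12.4%, 13.2%, 12.4% and 12.01% of counts in wild type 1, 2, 4 and 5, a mean of 12.5% ± 0.506, nearly all of it miR-126-3p. Of its 6 probes 3 were above in all lungs, and miR-222 was absent. The smooth muscle and mesenchyme list, led by miR-199a-3p, held 7.70% ± 0.615, and all 5 of its probes on the panel, miR-143, miR-145, both arms of miR-199a and miR-214, were above in all lungs.

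The epithelial list held 3.96%, 3.37%, 3.84% and 3.45% of counts, a mean of 3.65% ± 0.287, with 7 of 11 probes above in all lungs. Beside the miR-200 miRNAs these were miR-449a, known from multiciliated cells, with 1189, 812, 869 and 926 counts, and miR-205, known from basal epithelium, with 683, 649, 773 and 769. miR-375, known from endocrine cells, had 211, 181, 168 and 198 counts and exceeded the threshold of wild type 5 by 1.00-fold, so its call there is marginal. It was also the 1 probe above in all lungs of the 5 listed for pancreas and pituitary. Of the remaining epithelial probes, miR-141 and miR-203 were above in 2 lungs each and miR-34b-5p in 1. miR-34c, which like miR-449a is known from multiciliated cells, was absent.

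Blood cell miRNAs were detected at lower shares. The myeloid and lymphoid list held 0.978% ± 0.116, with 4 of 6 probes above in all lungs, led by miR-146a, which is induced by inflammatory signalling, at 0.498% ± 0.0793. The erythroid list held 0.839% ± 0.194 and was led by miR-451, which is cut by Ago2 without Dicer and accumulates in red cells. miR-451 had 2641, 1922, 1149 and 2211 counts, highest in wild type 1 and lowest in wild type 4.

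The cardiac and skeletal muscle, liver, neural and embryonic stem cell lists had no probe above background in all 4 lungs. Of the 7 cardiac and skeletal muscle probes, miR-1, miR-133a, miR-206 and miR-208b were above in some lungs and miR-133b, miR-208a and miR-499 were absent. The list summed to 0.187% ± 0.0433 of counts, led by miR-133a with 77, 113, 97 and 162 counts. Since miR-208a chose the lungs, this low sum is no finding, and wild type 3, outside the rule, had 11.05% of counts in the same list and 0.413% in the epithelial list. Of 3 liver probes miR-122 was above in some lungs while miR-192 and miR-194 were absent.

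Of 10 neural probes, miR-137 and miR-129-3p were above in 1 lung each, and miR-9, miR-124, miR-128, miR-219, miR-338-3p, miR-7a, miR-153 and miR-129-5p were absent. miR-124, the leading one, had 47, 118, 41 and 181 counts, high in the higher-background lanes. Of 14 embryonic stem cell probes 11 were absent, where 60.4% of all mouse probes were absent. The 11 were miR-290-3p, miR-290-5p, miR-291a-3p, miR-291a-5p, miR-292-5p, miR-293, miR-294, miR-295, miR-302a, miR-302c and miR-302d. Of these miR-291a-3p came nearest, at 0.978 of the threshold in wild type 1. miR-292-3p, miR-302b and miR-367 were above in 1 or 2 lungs, with none more than 1.17-fold over its threshold.

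**Figure D5:**
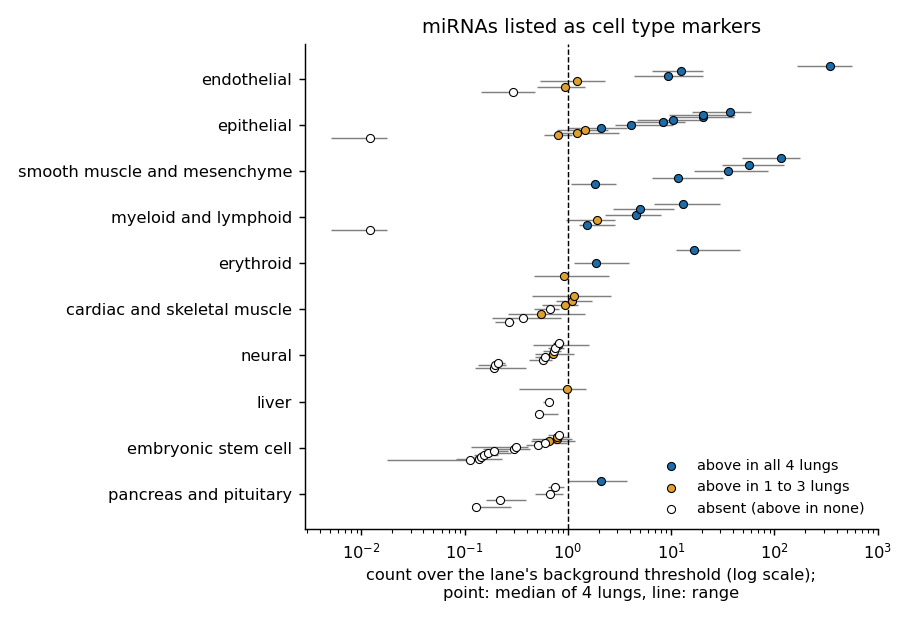
Count divided by the background threshold of its lane (horizontal axis, log scale) for each miRNA of 10 cell type lists, as the median (point) and range (line) of wild type 1, 2, 4 and 5, with a dashed line at the threshold. Probes above in all 4 lungs are blue, above in 1 to 3 orange and absent white, and the endothelial, epithelial and mesenchymal lists hold the highest ratios, led by miR-126-3p.

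Neighbouring hairpins, grouped where gaps were at most 10000 bases in GRCm38.p6, had unequal counts. Spans are those of the annotated hairpins, or of the mature strands where the table has no hairpin. The probes of miR-99b, let-7e and miR-125a at chr17:17830194-17830879 on the plus strand held 5.73% ± 0.514 of counts, and all 4 were above in all lungs. The X-linked cluster of miR-322, miR-503, miR-351, miR-542 and miR-450 at chrX:53047997-53054349 on the minus strand held 4.06% ± 0.342. miR-322 alone accounted for most of that, while miR-503, which shares its transcript, had 132, 133, 123 and 186 counts and was above background in 2 lungs. In the miR-106b~25 cluster at chr5:138165321-138165818, within Mcm7 on the minus strand, all 3 probes were above in all lungs, with miR-25 at 1.95%, miR-93 at 0.111% and miR-106b at 0.0923%.

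The imprinted Dlk1-Dio3 region of chromosome 12, whose miRNAs are made from the maternal allele, held many probes with low counts. Of its 32 matched probes at chr12:109709060-109747960 on the plus strand, 13 were above in all lungs, 9 in some and 10 in none, where 28.4% of all matched probes were above in all lungs. They summed to 2.35%, 2.29%, 2.32% and 2.39% of counts, a mean of 2.34% ± 0.0454, with miR-382 the highest at 979, 999, 906 and 1002 counts. The neighbouring group at chr12:109563692-109595388, with miR-433, miR-127 and miR-434, held 0.913% ± 0.0834, and 5 of its 15 probes were above in all lungs, near the share of all matched probes.

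At the other end, all 12 matched probes of the X-linked cluster of miR-465, miR-743 and miR-883, known from testis, were absent, as were all 10 matched probes of the miR-290 to miR-295 cluster of chromosome 7. Over all matched probes 53.8% were absent. The probe for miR-292-3p, of the chromosome 7 cluster but not in that count, was above in wild type 1 alone, by 1.17-fold. In the X-linked cluster of miR-188, miR-362 and miR-501, all 7 matched probes were absent, while miR-532-5p, an arm of 1 of its hairpins that is not in that count, was above in all 4 lungs at 267, 275, 281 and 295 counts.

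The lungs resembled each other more closely for abundant than for dim probes. The coefficient of variation (CV, SD over mean of the 4 shares) had a median of 12.8% over the 122 probes above background in all lungs, against 4.64% from counting error alone. It had a median of 8.85% among the top 20 and ran from 2.47% to 50.6% over all 122. With the threshold subtracted from every count the median was 20.1%, and with wild type 3 added it was 21.0%. The steadiest probes were let-7b, miR-1944, let-7c, let-7f and miR-126-3p. let-7b, for example, held 2.35%, 2.29%, 2.41% and 2.29% of counts. Its repeat lanes gave 2.22% for wild type 1 and 2.68% for wild type 5, outside that range. With those lanes in place of the first, its mean was 2.40% ± 0.201.

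The most variable probes were miR-467f, miR-181b + miR-181d, miR-30e, miR-26a and miR-539. miR-467f had 65, 154, 63 and 206 counts and miR-26a had 123, 190, 76 and 240, both high in wild type 2 and 5. All 5 had a higher share in these higher-background lanes than in wild type 1 and 4, and the part of background in this spread was not tested. In the repeat lanes miR-26a had 222 counts in the second lane of wild type 1, where the negative control mean was 67.1, and 165 in the second lane of wild type 5, where it was 44.9. Over all 122 probes 28 had a higher share in both higher-background lanes than in both others and 32 a lower one.

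Repeat lanes of the same RNA gave the technical spread. Between lungs, the median absolute log2 ratio of shares over the 122 probes was 0.14 to 0.23, and between the 2 lanes of wild type 1 and of wild type 5 it was 0.13 and 0.17. For the 40 probes with a mean of at least 1000 counts it was 0.13 to 0.20 between lungs and 0.08 and 0.10 between lanes. The spread between lungs was thus larger than that between lanes among abundant probes, and overlapped it among all.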

How the data were processed

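The deposited count table holds raw counts for 626 probes, and a second deposited table gives the same counts for 12 lanes, per the file headers. The first of these is identical to the opening lane of every sample over all 5634 values. The repeat lanes of wild type 1 and 5 entered as alternatives and as a measure of technical spread. The authors' deposited counts were used without normalization, and no background step is given in the sources used here.

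Shares, thresholds, families and arms were computed in pandas 2.3.3, numpy 2.4.6 and scipy 1.17.1 (Python 3.11.15), and figures drawn with matplotlib 3.10.9. The share calculation with the mean control subtracted was tested on simulated data with an equal expected background for every probe. That test does not cover the unsubtracted shares reported here or the background of these lanes. The precision of a count is limited by counting error and by lane background. Panel names were matched by hand to current mature names, and 9 probes read more than 1 miRNA.

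The lungs, lists and families were chosen with earlier results of these data known. Probes are named by rule: the top 20 probes, the 12 largest families with 2 members each, hairpins with a detected arm, the 5 steadiest and 5 most variable probes, the markers, and the leading member of each list, with all members of lists that had no probe above background in all lungs. Others were chosen after their values were seen.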

Additional observations from a re-analysis of the deposited data

Results flagged for a closer look

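In 4 of 55 sets of 4 values, 1 lung lay far from the other 3 by Dixon's gap over range at the 95% critical value, where chance alone marks about 1 in 20 sets. The let-7i share was lowest in wild type 5 at 3.42%, against 3.83% to 3.87% in the other lungs. The miR-25 share was highest in wild type 4 at 2.27%, against 1.81% to 1.86%. The share of the miR-17 family, with the seed AAAGUGC, was also highest in wild type 4 at 3.98%, against 2.73% to 2.77%. The 3p share of miR-450a was lowest in wild type 1 at 3.60%, against 5.49% to 5.83%, and its 3p arm was absent in all 4 lungs.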

How the results depend on the processing

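With each lung left out in turn, miR-126-3p averaged 11.4% to 11.8% and the let-7 family 21.6% to 22.2%. Dropping 1 of 4 lungs cannot shift a mean by more than its SD, so these ranges are no test of stability. The absent probes numbered 342 to 363, a count with no spread to set this against. Without wild type 5, 135 probes were above background in all lungs. Treatment of background changed the shares upward. With the lane's mean negative control subtracted, with the mean plus 2 SD subtracted, and with shares taken over the 122 probes alone, miR-126-3p averaged 12.7%, 13.5% and 12.8%, the top 20 probes 69.7%, 73.5% and 70.8%, the let-7 family 23.6%, 24.8% and 24.0%, and the miR-15/16 family 14.2%, 14.9% and 14.4%. In the median hairpin of the 14 with a detected arm, the stronger arm took 90.5% of counts as deposited, and 96.2% and 99.7% after the 2 subtractions. The median CV was 20.1% after the stricter subtraction and 21.0% with wild type 3 added, which also gave 11.98% for the miR-15/16 family. With the mean of the negative controls as the threshold, 180 probes were absent and 288 present. The cause of these differences was not tested beyond the subtraction itself. Taking the lower-background lane of wild type 1 and 5, an alternative chosen after seeing the data, left the main values within their spread. Leaving out the probes that read more than 1 miRNA lowered the miR-17 family to 0.203%. Of 270 single shares under settings other than leaving out a lung, 191 stayed within their spread and 79 moved. No paired analysis was possible because the report describes 1 group. Levels under the lane threshold could not be ordered.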
